A study of Mus musculus with 12 samples.

Results

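Complement is a cascade of plasma and tissue proteins that tags microbes and damaged cells for removal and calls in inflammatory cells. The classical and lectin pathways cleave C4 and C2, the alternative pathway uses factor B and properdin, and both routes form convertases that split C3. Cleavage of C3 and C5 releases the anaphylatoxins C3a and C5a, which act on receptors on myeloid and other cells, while the terminal components, C7 among them, build the membrane attack complex. The liver makes most circulating complement, and skin fibroblasts, macrophages, mast cells, adipocytes and keratinocytes can also transcribe complement genes. The genes analysed here were 8 of the 18505 gene rows of the deposited expression table, taken by symbol. They were C3, C4b, C2, Cfb (factor B), Cfp (properdin), C7, and the receptors C3ar1 and C5ar1. The choice was made with earlier results of these data known. All 8 had a mean FPKM (a read level corrected for transcript length and for the number of fragments mapped in the sample) above the limit of 0.1 over the 12 samples.

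Back skin of wild-type male BALB/c mice aged 5 to 6 weeks was sampled on day 10 in 3 groups of 4. The control group received petroleum jelly, a treatment that the labels call white space handling. Both other groups received imiquimod (IMQ) cream, a Toll-like receptor agonist that induces psoriasis-like lesions, for 6 h and were then covered with gauze and film. Under the cover was 0.9% NaCl solution (NS) in the IMQ + NS group and Banzhilian formula (BZLF), a herbal formula, in the IMQ + BZLF group. According to the methods, all treatments were repeated every day over 10 days. The cover is described for both IMQ groups and not for the control group, so the cream and the cover cannot be told apart in a comparison with control skin. Which dose of BZLF the sequenced skin had received is not given in the sources used here. Nothing states that a sample is 1 mouse, so p-values measure the spread between samples of a group. The samples were bulk tissue, in which fewer cells of a type and less RNA per cell cannot be told apart.

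Summed over genes, FPKM came to 444660 to 461199 in control, 492551 to 506622 in IMQ + NS and 476676 to 493935 in IMQ + BZLF samples. The control range thus lay below both others, and the number of fragments behind these values is unknown. Control replicate 2 stood apart from the other controls on the first principal component of all genes, at -63.2 against -116 to -122, and the 8 complement genes together had 313 FPKM there against 503 to 682 in the other controls. Values without this sample are given for each gene between IMQ + NS and control skin, and between IMQ + BZLF and control skin where a call changes.

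On the mouse genome (GRCm38, GENCODE gene models), Cfb and C2 lie head to tail on the minus strand of chromosome 17, at chr17:34856374-34862518 and chr17:34862604-34898265, with 85 bases between them. A joint gene model, Gm20547, overlaps both on the same strand, and Zbtb12 overlaps C2 on the other strand, so the division of reads between these neighbours is uncertain. C4b lies 112.5 kb from Cfb at chr17:34728380-34743882. The near-identical C4a, whose reads can be confused with those of C4b, had no row under that symbol in the deposited expression values and was not analysed. C3 is on the same chromosome at chr17:57203970-57228136. The others are C7 at chr15:4988762-5063740, C3ar1 at chr6:122847138-122856161, C5ar1 at chr7:16246743-16259540 and Cfp at chrX:20925454-20931555.

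RefSeq windows of 250 bases before and 50 after the annotated start (GRCm38.p6, minus strand, 5′ to 3′) were found for 5 of the 8 genes. Those of C3, the member with the highest control level, C7, the member with the largest difference, and C3ar1, the member that differed downward between the IMQ groups, are shown, at chr17:57228087-57228386, chr15:5063724-5064023 and chr6:122856108-122856407. Capitals mark matches to any of 5 motifs on either strand: TATAAA (the core of a box bound by TBP), TTNNGNAAT (C/EBP), TTCNNNGAA (STAT), GAGGAAGT (PU.1) and the NF-kappa B consensus.
C3: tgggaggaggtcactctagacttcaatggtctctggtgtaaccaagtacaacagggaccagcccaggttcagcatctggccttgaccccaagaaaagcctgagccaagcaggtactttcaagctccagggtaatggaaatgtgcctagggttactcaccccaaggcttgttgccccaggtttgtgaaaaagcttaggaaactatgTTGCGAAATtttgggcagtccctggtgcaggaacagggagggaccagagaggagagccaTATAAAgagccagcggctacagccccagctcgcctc
C7: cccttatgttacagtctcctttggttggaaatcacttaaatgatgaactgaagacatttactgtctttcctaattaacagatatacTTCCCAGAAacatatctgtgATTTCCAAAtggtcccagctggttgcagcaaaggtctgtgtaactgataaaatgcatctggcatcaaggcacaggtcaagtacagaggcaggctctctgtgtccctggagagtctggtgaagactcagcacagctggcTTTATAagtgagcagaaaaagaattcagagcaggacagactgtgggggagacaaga
C3ar1: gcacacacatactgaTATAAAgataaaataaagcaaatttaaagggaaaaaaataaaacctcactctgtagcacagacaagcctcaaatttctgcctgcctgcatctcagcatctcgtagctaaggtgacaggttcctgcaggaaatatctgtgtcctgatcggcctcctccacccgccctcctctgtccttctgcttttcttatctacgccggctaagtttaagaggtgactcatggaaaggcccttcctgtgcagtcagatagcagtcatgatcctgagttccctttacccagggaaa
The C3 window held a C/EBP match at bases 206 to 214 and the TBP motif at bases 265 to 270, after the annotated start, and the C7 window held a STAT match at bases 87 to 95, a C/EBP match at bases 107 to 115 and the TBP motif on the reverse strand at bases 245 to 250. The C3ar1 window held the TBP motif at bases 16 to 21, which is 235 bases before the start, and the windows of C5ar1 and Cfp held none of the 5. Of all 32851 windows in the table, 13.6% held the TBP motif, 11.5% the C/EBP motif, 8.3% the STAT motif, 3.2% the PU.1 motif and 4.51% the NF-kappa B consensus. These matches are letters in a window and were not tied to any measurement.

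In psoriasis-like lesions the RNA of most complement components was lower than in control skin. In IMQ + NS against control samples, 5 of the 8 genes fell at an adjusted p below 0.05 (C7, C2, C3, C4b and Cfb), against 27.1% of all 15288 genes tested, and none rose, against 29.0%. Of these 5, C7, C2 and C3 also passed a log2 fold change of 1 in size and were called differentially expressed genes (DEGs), a rule that 11.0% of all genes met as lower and 11.4% as higher. Without control replicate 2 the DEGs numbered 4, with C4b added. The median log2 fold change of the 8 was -0.82, beside 0.053 over all genes tested. At an unadjusted p below 0.05 in limma 1 of the 8, C3ar1, was higher and 6 were lower (C3, C4b, C2, Cfb, Cfp and C7). The share of all genes at this unadjusted limit was not counted. Every fold change is from limma on log2(FPKM + 0.1), with Benjamini-Hochberg adjustment over all genes tested.

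**Figure D1:**
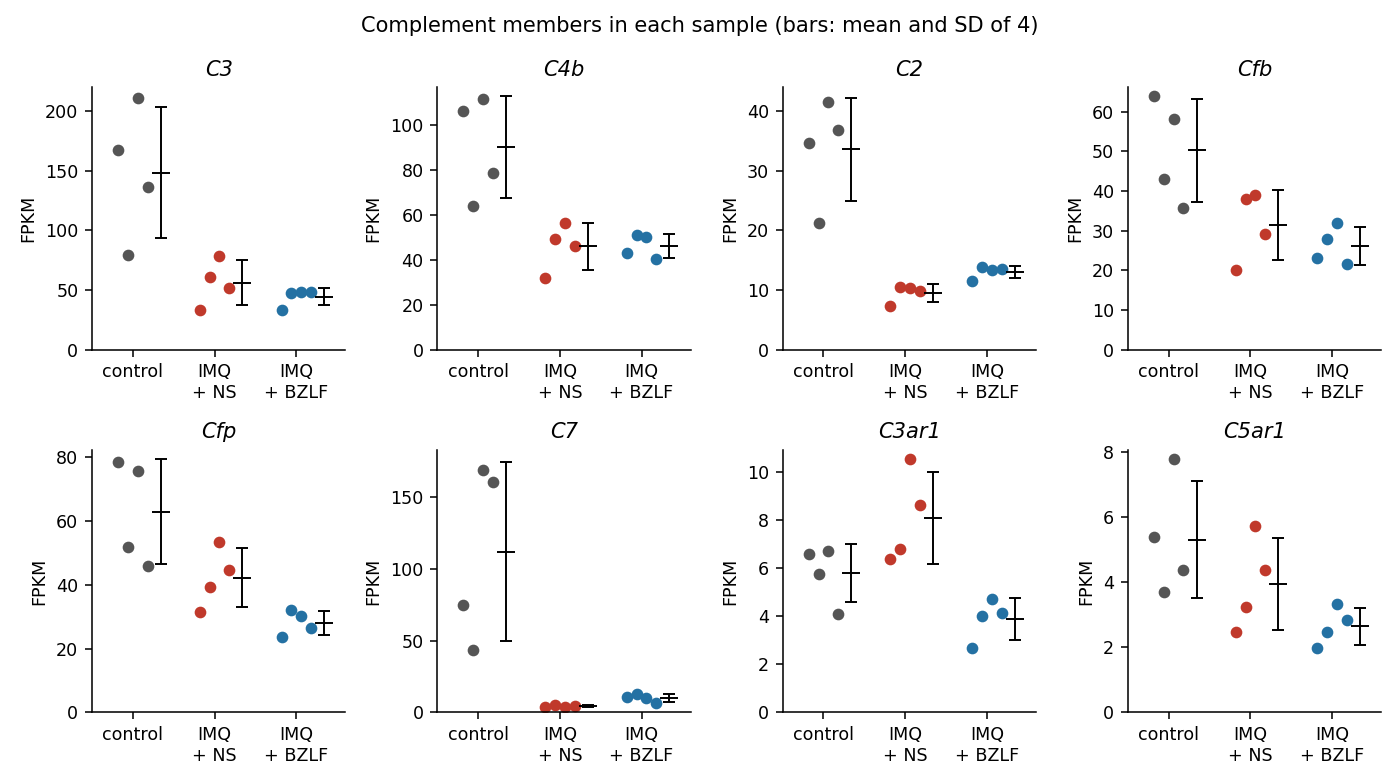
FPKM (vertical axes, each from 0) of the 8 complement genes in the 4 samples of each group, with the mean and SD of the group as a bar beside the points. C7 stands between 43.8 and 169 FPKM in control samples and at most 12.8 in all 8 IMQ-treated samples, whereas C3ar1 is highest in the IMQ + NS group.

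C3 is the component on which all activation pathways converge. Its FPKM was 167, 79.7, 211 and 136 in control replicates 1 to 4, 32.9, 61.2, 78.9 and 51.9 in the IMQ + NS replicates and 33.7, 47.5, 48.2 and 48.7 in the IMQ + BZLF replicates. Every control sample lay above every IMQ-treated sample, although control replicate 2 was only just above IMQ + NS replicate 3. Relative to control skin the IMQ + NS log2 fold change was -1.38 (standard error 0.34, adjusted p = 0.00781), or -1.65 without control replicate 2. Between the IMQ groups C3 did not pass the test, with a difference of -0.28 on the log2 scale and a 95% interval from -0.83 to 0.26 (adjusted p = 0.532).

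C4b and C2 are cleaved together to form the C3 convertase of the classical and lectin pathways. C4b had 106, 64.1, 112 and 78.6 FPKM in control samples, 31.8, 49.3, 56.5 and 46.3 in IMQ + NS samples and 43.0, 51.2, 50.2 and 40.3 in IMQ + BZLF samples. It fell by 0.97 on the log2 scale in IMQ + NS against control samples (standard error 0.22, adjusted p = 0.00583), and was not a DEG. It passed the fold limit of a DEG without control replicate 2 (-1.12), control replicate 4 (-1.02), IMQ + NS replicate 2 (-1.01) or IMQ + NS replicate 3 (-1.07). The IMQ groups had almost the same C4b mean, 46.0 ± 10.4 (SD, n = 4) against 46.2 ± 5.35 after BZLF, and the log2 interval of their difference ran from -0.34 to 0.40.

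C2 had 34.5, 21.3, 41.5 and 36.8 FPKM in control samples, 7.32, 10.5, 10.4 and 9.78 in IMQ + NS samples and 11.4, 13.8, 13.4 and 13.5 in IMQ + BZLF samples. The 3 groups were in separate ranges, with IMQ + NS lowest and control highest. C2 fell by 1.78 on the log2 scale in IMQ + NS against control samples (standard error 0.21, adjusted p = 1.93e-04), and its log2 fold change was -1.99 without control replicate 2. After BZLF it was higher by 0.46 (standard error 0.12, 95% interval 0.19 to 0.73), and this missed the threshold (adjusted p = 0.0531, and 0.0157 to 0.239 under other settings).

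Factor B and properdin serve the alternative pathway, as its protease and as the protein that stabilises its convertase. Cfb had 64.0, 43.1, 58.2 and 35.8 FPKM in control samples, 20.1, 38.1, 38.9 and 29.1 in IMQ + NS samples and 23.1, 28.0, 32.0 and 21.6 in IMQ + BZLF samples. The control and IMQ + NS ranges overlapped, and the fall of 0.68 on the log2 scale (standard error 0.25, adjusted p = 0.0448) no longer passed in 7 of 17 other settings, among them without control replicate 1 (adjusted p = 0.119), control replicate 3 (0.111), IMQ + NS replicate 1 (log2 difference -0.48) or IMQ + NS replicate 4 (0.0941), and with the replicate number as a block (0.0698). Without control replicate 2 the log2 fold change was -0.74 (adjusted p = 0.0418 by limma). Between the IMQ groups the log2 difference of Cfb was -0.24 (95% interval -0.72 to 0.24, adjusted p = 0.552).

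Cfp had 78.6, 51.8, 75.7 and 45.9 FPKM in control samples, 31.3, 39.4, 53.6 and 44.8 in IMQ + NS samples and 23.5, 32.1, 30.3 and 26.6 in IMQ + BZLF samples. The middle group overlapped both others, while every IMQ + BZLF sample lay below every control sample. Neither comparison with the IMQ + NS group passed the test, with log2 differences of -0.56 in IMQ + NS against control (adjusted p = 0.0531) and -0.57 in IMQ + BZLF against IMQ + NS (adjusted p = 0.0693, and 0.0240 with the replicate number as a block). The first of these passed without control replicate 2 (adjusted p = 0.0368), control replicate 4 (0.0274) or IMQ + NS replicate 3 (0.0353). In IMQ + BZLF against control samples Cfp fell by 1.13 (standard error 0.19, adjusted p = 0.00145).

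C7 joins the terminal complex and anchors it to the membrane. It had 74.8, 43.8, 169 and 161 FPKM in control samples, 3.66, 5.21, 3.97 and 4.49 in IMQ + NS samples and 10.5, 12.8, 9.75 and 6.64 in IMQ + BZLF samples. The 3 groups did not overlap, and the controls themselves spread widely, with a coefficient of variation of 55.7%. C7 had the largest differences of the 8 genes. Relative to control skin its log2 fold change after IMQ + NS was -4.47 (standard error 0.40, adjusted p = 4.71e-05), or -4.85 without control replicate 2. After BZLF it was 1.15 above IMQ + NS (standard error 0.19, adjusted p = 0.0105), a rise to a level that was still 3.32 below control samples on the log2 scale (adjusted p = 4.2e-04), with a fold change of -3.70 without control replicate 2. The rise did not pass when all 12 samples shared 1 estimate of the spread (adjusted p = 0.123). Of the summed FPKM of the 8 genes, C7 made up 21.2% ± 8.85 (SD, n = 4) in control skin, 2.23% ± 0.496 after IMQ + NS and 5.70% ± 1.39 after IMQ + BZLF.

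C3ar1 and C5ar1 encode the receptors for C3a and C5a, found mainly on myeloid cells. C3ar1 had 6.58, 5.74, 6.73 and 4.10 FPKM in control samples, 6.37, 6.78, 10.5 and 8.64 in IMQ + NS samples and 2.66, 4.03, 4.72 and 4.15 in IMQ + BZLF samples. The IMQ + NS range overlapped the control range at its lower end and lay wholly above the IMQ + BZLF range. C3ar1 was the 1 member with a mean above control in the IMQ + NS group, by 0.47 on the log2 scale, which did not pass the test (95% interval 0.01 to 0.94, adjusted p = 0.0782, and 0.0942 without control replicate 2). After BZLF it fell by 1.04 against IMQ + NS samples (standard error 0.20, adjusted p = 0.0195, and 0.00313 to 0.0592 under the other settings). This call was lost without IMQ + NS replicate 4 (adjusted p = 0.0592) or IMQ + BZLF replicate 2 (0.0566), and without the filter on low values (0.0511). Without IMQ + NS replicate 3 or IMQ + BZLF replicate 1 it was no longer a DEG.

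C5ar1 had 5.39, 3.69, 7.78 and 4.39 FPKM in control samples, 2.48, 3.24, 5.73 and 4.38 in IMQ + NS samples and 1.98, 2.46, 3.32 and 2.84 in IMQ + BZLF samples. Both IMQ-treated ranges overlapped each other, and only the IMQ + BZLF range lay wholly below the controls. The log2 difference was -0.43 in IMQ + NS against control (95% interval -1.10 to 0.24, adjusted p = 0.243, and 0.116 without control replicate 2) and -0.52 in IMQ + BZLF against IMQ + NS (95% interval -1.08 to 0.05, adjusted p = 0.258). C5ar1 fell by 0.94 in IMQ + BZLF against control samples (standard error 0.24, adjusted p = 0.0109).

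Relative to IMQ + NS, 1 of the 8, C7, rose with BZLF and 1, C3ar1, fell, and both were DEGs. C2 also passed as higher under median ratio scaling (0.52, adjusted p = 0.0352) and quantile normalization (0.52, adjusted p = 0.0384). Of all genes tested, 1.28% rose and 5.17% fell at an adjusted p below 0.05, and 0.321% and 2.20% were DEGs. The median log2 fold change of the 8 was -0.26, beside -0.023 over all genes.

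Against control skin, lesions given BZLF had less RNA of all 6 components and of C5ar1. In IMQ + BZLF against control samples 7 of the 8 fell, with C3ar1 the exception at -0.57 (adjusted p = 0.0503 by limma), while 29.2% of all genes fell and 23.8% rose. The DEGs among them were C7, C3 at -1.67 (standard error 0.28, adjusted p = 0.00137), C2 at -1.32 (standard error 0.19, adjusted p = 7.45e-04) and Cfp, or 4 of 8 where 10.1% of all genes were lower and 9.65% higher. C3ar1 passed as lower in 7 of 17 other settings, namely with 1 added before the logarithm (adjusted p = 0.0482 by limma), the stricter filter (0.0474), median ratio scaling (0.0468), quantile normalization (0.0234), all 12 samples in 1 fit (0.0390), without control replicate 4 (0.0203) and without IMQ + BZLF replicate 3 (0.0446). C4b fell by 0.93 and Cfb by 0.92 (adjusted p = 0.00276 and 0.00520 from limma). The lower DEGs numbered 6 without control replicate 2, with C4b (-1.09) and C5ar1 (-1.10) added, and also 6 without control replicate 4 or IMQ + BZLF replicate 3, with Cfb and C5ar1 added. The comparisons share samples, so their values are not independent. By the exact permutation test (two-sided), each difference without overlap between 4 and 4 samples had a p of 0.0286, the smallest it can give.

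**Figure D2:**
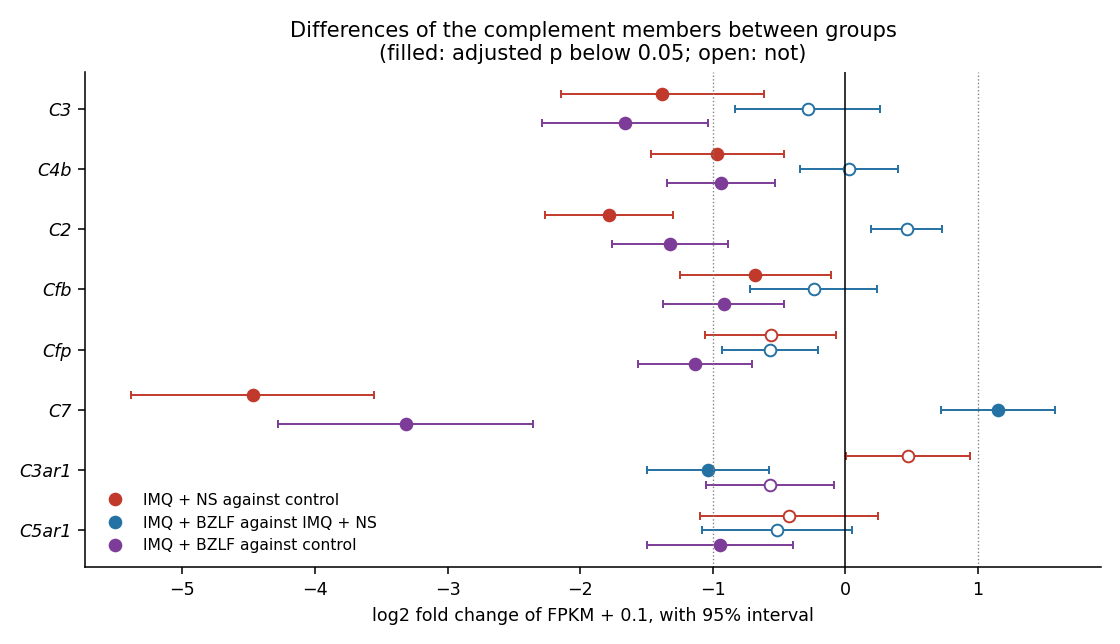
Log2 fold change of FPKM + 0.1 (horizontal axis) with its 95% interval for the 8 complement genes in the 3 comparisons, with filled points at an adjusted p below 0.05 and dotted lines at a log2 fold change of 1 in size. C7 is farthest from 0 at -4.47 and -3.32, and between the IMQ groups C7 and C3ar1 are filled, at 1.15 and -1.04.

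The samples of a group ranked alike for many of the genes. IMQ + NS replicate 1 was the lowest of its group for all 8, and replicate 3 was the highest for 6 (not for C2 and C7). Control replicate 2 was the lowest control for 5 genes (C3, C4b, C2, C7 and C5ar1) and control replicate 4 for the other 3, while IMQ + BZLF replicate 1 was the lowest of its group for 5. Leaving out IMQ + NS replicate 1 brought C2 (0.34, adjusted p = 0.0467) and Cfp (-0.70, adjusted p = 0.0231) past the threshold with BZLF relative to IMQ + NS. Leaving out IMQ + BZLF replicate 1 brought C2 past it (0.52, adjusted p = 0.0417).

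The genes whose pattern was most like that of each member, by Pearson correlation of log2(FPKM + 0.1) over the 12 samples among the 12649 genes that averaged 1 FPKM or more, differed between the members. These correlations are descriptions, since the 12 points fall into groups. The nearest genes were Agtrap (r = 0.989) and C1ra (0.988) for C3, Galnt12 (0.976) and Pltp (0.963) for C4b, Cadm3 (0.993) and Pcolce2 (0.987) for C2, and Adamtsl5 (0.987) and Mrgprb3 (0.986) for C7. Cfp was nearest to C1qc (0.981) and C1qa (0.979), both subunits of C1q, and Cfb to Cd68 (0.938), a macrophage lysosomal protein, and AI987944 (0.936). C3ar1 was nearest to Tlr9 (0.979), an innate receptor for DNA, and Rac2 (0.972), a GTPase of blood cells, and C5ar1 to Cd14 (0.950), a co-receptor for lipopolysaccharide, and AI467606 (0.936).

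The rest of the complement system was read from a list of 43 further genes, of which 42 had a row and 29 passed the filter on low values. In IMQ + NS against control samples 20 of the 29 fell and 5 rose at an adjusted p below 0.05, 10 and 2 of them as DEGs, with a median log2 fold change of -0.75. Of all genes tested, 27.1% fell and 29.0% rose in this comparison, and 11.0% and 11.4% were DEGs. Quantile normalization left 1 higher DEG, as did leaving out control replicate 4, and 4 were higher without IMQ + NS replicate 2.

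Among recognition and activating proteins, Cfd, the factor D protease also known as adipsin and made by adipocytes, fell from 3159 to 828 FPKM (log2 fold change -1.89, adjusted p = 7.38e-04). Fcna, a ficolin of macrophages that starts the lectin pathway, fell from 33.1 to 4.49 FPKM (-2.76, adjusted p = 0.00111). The 3 C1q chains, which open the classical pathway, fell by less, C1qa by 0.54, C1qb by 0.36 and C1qc by 0.48 (adjusted p = 0.0212, 0.0456 and 0.0205). The proteases that act with C1q also fell, C1ra by 0.75, C1rb by 0.87 and C1s1 by 0.51, whereas C1s2 did not pass the test at -0.41 (adjusted p = 0.0807). The calls of the C1q chains and C1s1 were each lost without control replicate 1, control replicate 3 or IMQ + NS replicate 1, with adjusted p from 0.0521 to 0.118, and those of C1qb and C1s1 also without IMQ + NS replicate 4, and that of C1qb without IMQ + NS replicate 2. Colec12, a collectin of the cell membrane, fell by 0.91. Masp1, a protease of the lectin pathway, rose by 0.91 (adjusted p = 0.00687). Masp2, the other protease of this pathway in the list, was low, at 0.322 FPKM in control and 0.192 in IMQ + NS samples. It fell by 0.55 (adjusted p = 0.0431). This call was lost in 8 other settings, among them without control replicate 2, 3 or 4 or IMQ + NS replicate 1, 2 or 3.

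Of the terminal genes beside C7, C6 fell from 6.45 to 1.89 FPKM (-1.69, adjusted p = 0.00692) and C8g, at 0.733 FPKM in the control group, fell by 1.09 (adjusted p = 0.0126). Hc, which encodes C5, was below the filter, as were C8a, C8b and C9.

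Regulators that limit complement fell as well. Serping1, the C1 inhibitor, fell from 463 to 151 FPKM (-1.59, adjusted p = 2.1e-04), Vtn, vitronectin, fell by 1.93, and the membrane-bound inhibitors Cd55, Cd59a and Cd59b by 1.11, 1.31 and 1.02. Of these Cd59b was low, at 0.691 FPKM in control and 0.283 in IMQ + NS samples. Cr1l, the rodent inhibitor Crry, fell by 0.32. Clu, clusterin, which blocks the terminal complex and is also made by epithelium, moved the other way, from 28.4 to 74.4 FPKM (1.38, adjusted p = 2.12e-05).

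The receptor subunits on leukocytes rose, Itgam from 13.1 to 28.6 FPKM (1.12, adjusted p = 0.00112), Itgb2 by 0.94 and Itgax by 0.56, the last a call that was lost in 10 of 17 settings, among them without control replicate 2, 3 or 4 or IMQ + NS replicate 3 or 4. Together these integrin chains form complement receptors 3 and 4, and they also serve adhesion. Vsig4, a macrophage receptor for C3b, had 1.80 FPKM in the control and 0.723 in the IMQ + NS group and did not pass the test (adjusted p = 0.106, and 0.0397 without control replicate 2).

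**Figure D3:**
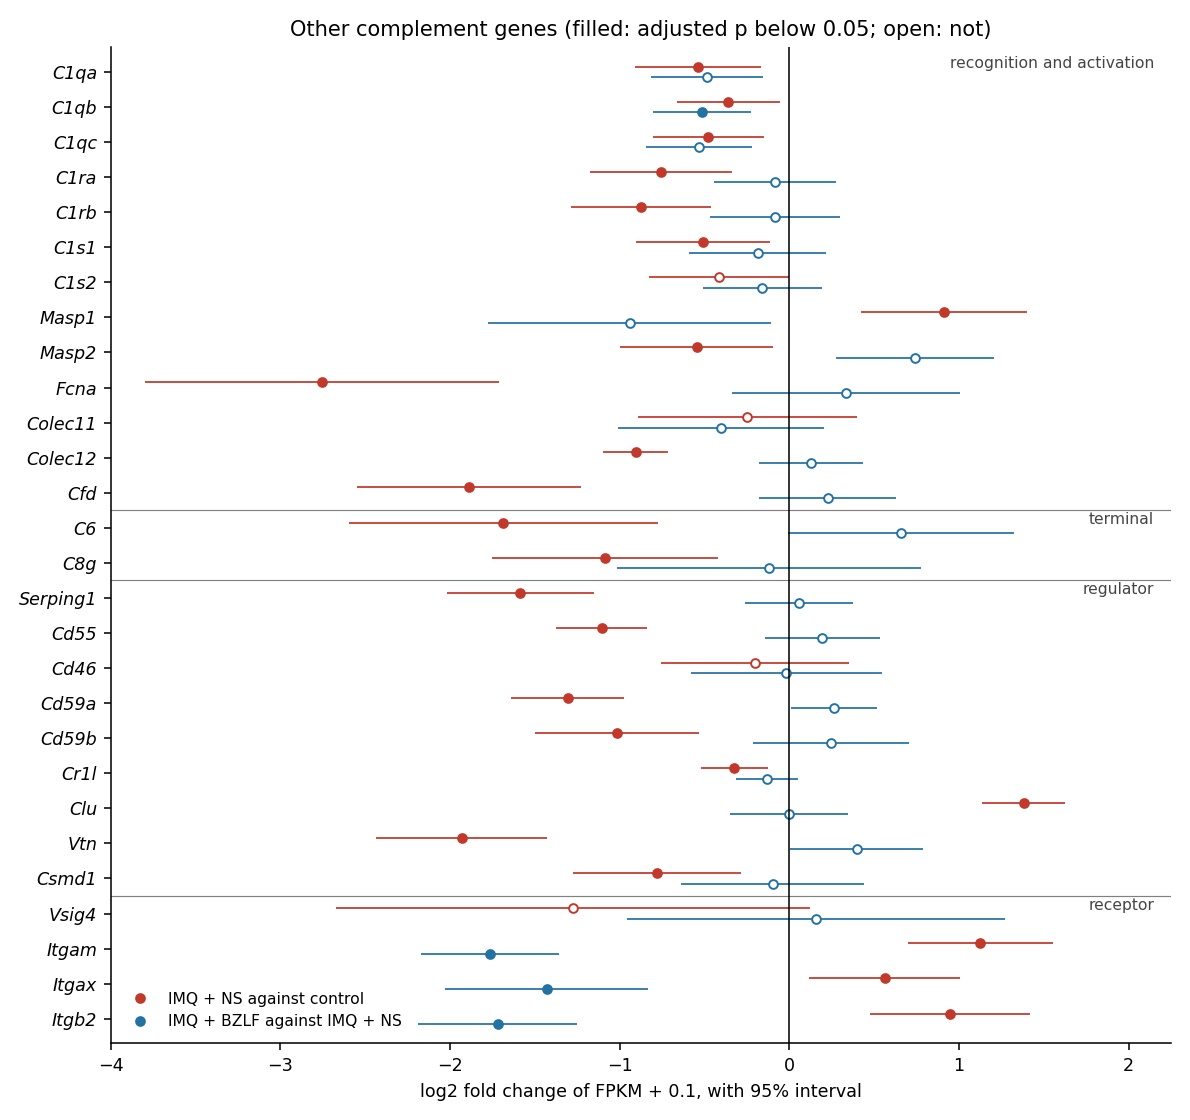
Log2 fold change of FPKM + 0.1 (horizontal axis) with its 95% interval for 28 of the 29 other complement genes, ordered by role, for the IMQ + NS to control comparison and for the comparison of the IMQ groups; filled points had an adjusted p below 0.05. Between the IMQ groups the filled points are C1qb and the integrin chains Itgam, Itgax and Itgb2.

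After BZLF, 4 of the 29 fell against IMQ + NS samples and none rose by limma at an adjusted p below 0.05, beside 5.17% and 1.28% of all genes. At an unadjusted p below 0.05, 3 were higher (Masp2, Cd59a and Vtn) and 7 lower (the 3 C1q chains, Masp1, Itgam, Itgax and Itgb2). The share of all genes at this unadjusted limit was not counted, so these unadjusted counts have no background beside them. Itgam fell by 1.76, Itgb2 by 1.72 and Itgax by 1.43 (adjusted p = 0.00151, 0.00328 and 0.0153 from limma), and these 3 were the DEGs (2.20% of all genes were lower DEGs), with Itgax at 0.0512 without IMQ + BZLF replicate 2. The other was C1qb, which fell by 0.52 (adjusted p = 0.0470 by limma). Its call was lost in 12 of 17 settings, among them without any 1 of the IMQ + BZLF samples or of IMQ + NS replicates 2, 3 and 4. C1qc (-0.53, adjusted p = 0.0550) and C1qa (-0.49, adjusted p = 0.0860) missed the threshold. Both passed with the replicate number as a block (adjusted p = 0.0140 and 0.0159), and C1qc also without IMQ + NS replicate 1 (0.0447). Masp1 did not pass with all samples, but was a lower DEG without IMQ + BZLF replicate 4 (-1.32, adjusted p = 0.0210 by limma). It had 6.04 FPKM in that sample, against 1.62, 2.41 and 2.17 in IMQ + BZLF replicates 1 to 3. Serping1 (0.06, 95% interval -0.26 to 0.37) and Clu (-0.0023, 95% interval -0.35 to 0.35) had intervals on both sides of 0. Against control samples 24 of the 29 fell and Clu rose, beside 29.2% and 23.8% of all genes. Of these 9 and 1 were DEGs, beside 10.1% and 9.65% of all genes, or 5 lower DEGs without IMQ + BZLF replicate 1 and 6 without control replicate 1 or 3. The lower call of C6 against control was lost in 7 settings, those of Colec11, Cd59b and Itgam in 5 each, and those of C1s2 and Itgax in 1 each. Vsig4 passed as lower only without control replicate 2 (adjusted p = 0.00494 by limma).

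Markers of several cell types moved with these groups. Summed over each list, the macrophage markers had 1202 to 1671 FPKM in control, 739 to 1125 in IMQ + NS and 516 to 813 in IMQ + BZLF samples. In IMQ + NS against control samples 5 of 8 macrophage markers fell and 2 rose, Adgre1 among the latter (0.70). After BZLF 2 of the 8 fell, Adgre1 by 1.36 (adjusted p = 0.00157 from limma) and Fcgr1 by 0.81 (adjusted p = 0.0283). The fibroblast markers summed to 13098 to 18662 FPKM in control, 3695 to 4902 in IMQ + NS and 4294 to 8122 in IMQ + BZLF samples. Of these 7 markers, 6 were lower in IMQ + NS than control samples. Collagen RNA made up most of these sums, with Col1a2 alone at a mean of 5592, 1184 and 2184 FPKM in the same order of groups. Pdgfra, the marker not called, averaged 16.0, 15.3 and 14.5 FPKM, and Pdgfrb 16.6, 13.0 and 11.9. The adipocyte markers summed to 2075 to 4173, 1237 to 1795 and 1652 to 1867 FPKM, with 4 of 5 lower. Mast cell markers summed to 199 to 337, 134 to 193 and 101 to 187 FPKM, with 3 of 5 lower and 1 higher, and those of endothelium to 66.4 to 87.4, 54.6 to 66.4 and 43.4 to 67.1, with 2 of 4 lower.

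Skeletal muscle markers summed to 2814 to 6867 FPKM in control, 551 to 1246 in IMQ + NS and 891 to 1232 in IMQ + BZLF samples, with all 5 lower in IMQ + NS than control samples. Neutrophil markers rose for 7 of 8, from 7.36 to 11.2 FPKM in control to 39.1 to 79.8 in IMQ + NS samples, and after BZLF 7 of 8 fell, to 9.26 to 15.6. Keratinocyte markers rose for 5 of 6, from 1849 to 2965 to between 4803 and 7614 FPKM, and 4 of 6 fell after BZLF, to between 2168 and 3715. The markers of liver summed to 8.81 FPKM or less in every sample and 3 of 8 passed the filter on low values, with none called in any comparison by limma and none at an unadjusted p below 0.05. Up to 5 of the 8 liver markers were listed at 0 in a sample. The 8 complement genes together had 313 to 682 FPKM in control, 136 to 258 in IMQ + NS and 150 to 192 in IMQ + BZLF samples. The part of cell composition in the complement differences was not tested.

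**Figure D4:**
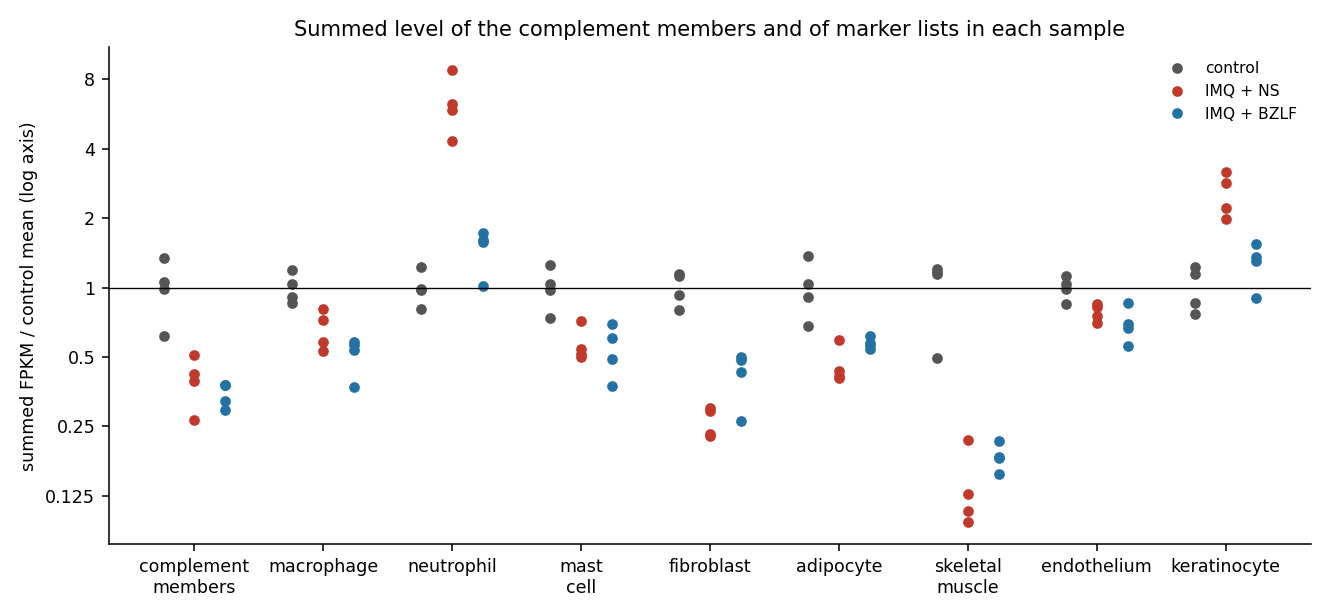
Summed FPKM of the 8 complement genes and of 8 marker lists in each of the 12 samples, divided by the mean of the control samples (vertical axis, log scale). The complement genes sit at 0.267 to 0.508 of the control mean in IMQ + NS samples, beside 0.529 to 0.806 for macrophage, 0.226 to 0.3002 for fibroblast and 4.31 to 8.79 for neutrophil markers. Collagen RNA makes up most of the fibroblast sum.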

How the data were processed

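Total RNA-seq of back skin covered 12 samples, with 4 in each of 3 groups read from the sample titles. The authors deposited 1 FPKM value per gene and sample, on a linear scale and not pooled. According to the methods, reads were aligned with Bowtie2 to mRNA and lncRNA sequences and quantified with eXpress, whereas the submitters' processing notes name fastp, HISAT2, HTSeq, R 3.2.0 and mm10, so the route to the FPKM values is not settled, nor is the library kit, for which both sources differ. The stated count test could not be run on FPKM. Of 11985 low values, 38.6% were within 0.05 of being whole when divided by the lowest value of the gene, so no counts were rebuilt and precision comes from the 4 replicates.

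The 15288 genes that averaged 0.1 FPKM or more were tested on log2(FPKM + 0.1) with limma 3.58.1 in R 4.3.3, for each pair of groups, with a variance trend. The constant understates the change of low genes. A gene passed at an adjusted p below 0.05 and was a DEG where its log2 fold change was also beyond 1 or -1. The fit was tried on simulated data for IMQ + BZLF against IMQ + NS alone, with independent noise. The simulated effects were larger than the member differences there, so it does not speak to smaller effects or to the control comparisons. Figures and ratios used Python 3.11.15, pandas 2.3.3 and matplotlib 3.10.9. Named genes were the 8 members, called or well expressed genes (mean FPKM of at least 1) of the fixed complement list, and the 2 genes most like each member. The members and lists were chosen with earlier results of these data known. Alternatives were constants of 0.01 and 1, no filter, a stricter filter at 1 FPKM, median ratio scaling, quantile normalization, 1 fit of all 12 samples, no trend, the replicate number as a block, and each sample left out. Some items of the fixed lists are counted but not reported here by name.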

Additional observations from a re-analysis of the deposited data

Results flagged for a closer look

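Of 24 groups of 4 values of the complement members, 1 held a sample set far apart from the others, and chance gives about 1 in 20. C3 in IMQ + BZLF replicate 1 had 33.7 FPKM, and its gap to the next sample took up 0.926 of the range of the group. Over these and 28 of the 29 other complement genes tested, 3 of 108 groups were set apart in this way, all in the IMQ + BZLF group. The others were Colec12 in IMQ + BZLF replicate 1, the lowest of its group at 18.7 FPKM (0.844 of the range), and Colec11 in IMQ + BZLF replicate 4, the highest at 0.196 FPKM (0.851).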

How the results depend on the processing

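For the 8 members, 377 of 408 repeats of a log2 fold change under another setting stayed on the same side of an adjusted p of 0.05, and none turned a called direction. Without a fold change limit, the lower members numbered 5 in place of 3 in IMQ + NS against control and 7 in place of 4 in IMQ + BZLF against control samples, and the other complement genes 20 in place of 10 and 24 in place of 9, with 5 in place of 2 higher in IMQ + NS against control samples. Quantile normalization left 1 of these 2. Leaving out 1 sample gave 1 to 4 higher genes there, and 5 to 12 lower genes in IMQ + BZLF against control samples. In IMQ + BZLF against IMQ + NS samples C7 was not called (0 in place of 1) with all 12 samples in one fit. C3ar1 was not a lower DEG (0 in place of 1) with 1 added before the logarithm, with no filter on low values, with median ratio scaling or with quantile normalization, and the number was 0 to 1 when 1 sample was left out, being 0 without IMQ + BZLF replicate 1 or 2 or IMQ + NS replicate 3 or 4. The cause was not tested. Quantile normalization moved the median of all genes by -0.12 in IMQ + NS against control samples.

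The replicate numbers were not stated to pair samples, and the deviations of same-numbered samples correlated at -0.15 to 0.26, with 6 of 12 pairs above 0.1. With the replicate block, Cfb lost its call in IMQ + NS against control (adjusted p = 0.0698), and C2 (0.0157), Cfp (0.0240) and C5ar1 (0.0481) passed in IMQ + BZLF against IMQ + NS samples; no count of DEGs among the 8 members moved.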

Other observations

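Ratios between members of the same sample do not depend on the scaling between samples. Both ratios here were chosen after the values were seen, so their p-values are descriptions of the separation and not independent tests. The ratio of C3ar1 to C5ar1 FPKM was 1.22, 1.56, 0.865 and 0.935 in control samples, 2.57, 2.09, 1.84 and 1.97 in IMQ + NS samples and 1.34, 1.64, 1.42 and 1.46 in IMQ + BZLF samples. All IMQ + NS samples lay above all others (exact permutation test, two-sided, p = 0.0286 against each group), and IMQ + BZLF and control samples overlapped (p = 0.143 by the same exact test).

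The ratio of the neighbours C2 and Cfb rests on how reads were divided between them, which is uncertain because a joint gene model overlaps both. The ratio of C2 to Cfb averaged 0.694 ± 0.243 (SD, n = 4) for control skin, 0.311 ± 0.0473 after IMQ + NS and 0.507 ± 0.0860 after IMQ + BZLF. All IMQ + NS samples lay below all others (exact permutation test, two-sided, p = 0.0286 against each group), and IMQ + BZLF and control samples overlapped (p = 0.200 by the same exact test).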
